A study of Oryza nivara and Oryza rufipogon with 42 samples.

Results

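The rice AP1/FUL MADS-box genes were taken as 4 loci, LOC_Os03g54160 (OsMADS14), LOC_Os07g01820 (OsMADS15), LOC_Os07g41370 (OsMADS18) and LOC_Os12g31748 (OsMADS20). They were chosen by family membership and not by a cutoff on any measured value, although earlier results of these data were known. The tables pair no locus number with a gene name, so the symbols were not checked against an annotation. OsMADS14, OsMADS15 and OsMADS18 were 3 of the 20134 genes in the tables of digital gene expression (DGE), a method that counts short tags cut from the 3′ region of transcripts. All 4 genes were among the 37497 genes of the RNA-seq table.

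AP1/FUL-like genes encode MADS-domain transcription factors that act when a shoot apex turns from making leaves to making an inflorescence. In rice the florigen protein made in leaves moves to the apex, where its complex with an FD-type factor switches on AP1/FUL-like genes. OsMADS14, OsMADS15 and OsMADS18 act together there in giving the inflorescence meristem its identity. OsMADS15 also shapes the palea, an outer organ of the floret. The wheat and barley gene VRN1, a relative of OsMADS14, is expressed in leaves as well as in apices.

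The study compared the annual wild rice Oryza nivara with the perennial O. rufipogon, asking how expression differs between species of unlike habitats. Each species gave 6 DGE libraries of flag leaves and 6 of panicles taken at heading, plus 6 of panicles in flower, with 3 of each collected in 2009 and 3 in 2010 from greenhouse plants of Asian origin raised from seed. A further 6 RNA-seq libraries, all of 2009, covered each tissue of each species with 1 library. The number in a library title was read as the plant, although the labels do not say so, and 0 numbers occurred in both years. Collection year and set of plants therefore cannot be told apart. The title numbers were 10 in O. nivara and 7 in O. rufipogon.

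Summed counts per DGE library were 1725036 to 2712054 in 2009 and 2677440 to 4173433 in 2010. DGE levels are given as CPM, counts per 1e+06 of the TMM-scaled library total, with no division by gene length. They are used here to compare libraries for 1 gene. How well they rank genes against each other was not tested. The labelled tissues were read from lists of marker loci attached from general knowledge. The summed level of 10 photosynthesis loci was 28174 to 94077 CPM in leaves, 535 to 8549 CPM at heading and 2766 to 17472 CPM at flowering. The summed level of 6 floral organ loci was 8.88 to 49.3 CPM in leaves and 368 to 2013 CPM in panicles, and all 6 rose from leaves to heading panicles in both species. A whole organ was sampled each time, so fewer cells of a type and less RNA per cell cannot be told apart.

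In both species OsMADS14 and OsMADS18 had higher mean levels in flag leaves than in either panicle stage, and OsMADS15 had higher mean levels in the panicles. From leaf to heading panicle, OsMADS14 fell 5.13-fold in O. nivara and 8.17-fold in O. rufipogon, and OsMADS18 fell 5.18-fold and 4.22-fold. OsMADS15 rose 5.30-fold in O. rufipogon, while its difference in O. nivara did not pass the test. Over the same step the summed photosynthesis level fell and the floral organ level rose, as given above.

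From leaf to heading panicle the members called in O. nivara were 2 of 3, against 46.7% of all genes tested, and 3 of 3 in O. rufipogon, against 42.6%. From leaf to flowering panicle they were 2 of 3 in O. nivara, against 37.5%, and 3 of 3 in O. rufipogon, against 40.4%. Between the panicle stages they were 0 of 3, against 12.9% in O. nivara and 8.25% in O. rufipogon. With such shares of all genes called, the number of members called between leaf and panicle is not particular to them. The median of all genes tested was 0.18 and 0.16 (log2) for heading panicle minus leaf in O. nivara and O. rufipogon, and with no TMM factor it was 0.84 and 0.93. For flowering panicle minus leaf it moved from 0.14 to 0.76 and from 0.09 to 0.73. The share of calls that were higher in panicles moved with it, from 56.4 to 77.5% and from 56.1 to 80.1% at heading, and from 58.4 to 83.2% and from 56.0 to 78.8% at flowering. The 3 members kept their tissue direction under each scaling tried.

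**Figure D1:**
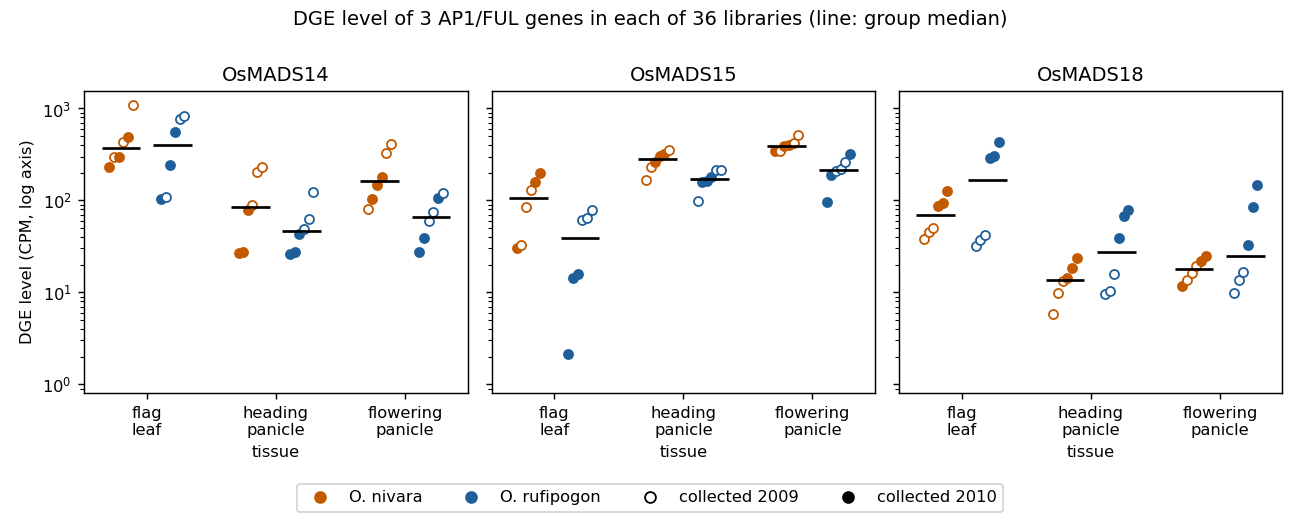
DGE levels of OsMADS14, OsMADS15 and OsMADS18 (CPM, log axis) in flag leaves, heading panicles and flowering panicles, with 1 point per library, colour for species, open points for 2009, filled points for 2010 and a line at each group median. OsMADS15 in flowering panicles starts at 343 CPM in the O. nivara libraries and ends at 323 CPM in the O. rufipogon libraries, and OsMADS18 in O. rufipogon flag leaves splits into points of 31.7 to 41.9 CPM from 2009 and points of 291 to 430.3 CPM from 2010.

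OsMADS14 is one of the genes that respond to florigen in the rice apex. In O. nivara flag leaves it ranged from 230.4 to 1087 CPM with a median of 367 CPM, and in O. rufipogon flag leaves from 105 to 836 CPM with a median of 398 CPM. Plant 26 held the highest O. nivara value, above the next library at 495 CPM. Heading panicles ranged from 26.9 to 229.9 CPM with a median of 83.8 CPM in O. nivara and from 26.2 to 122 CPM with a median of 46.1 CPM in O. rufipogon. All 6 heading panicles of O. nivara lay below all 6 of its flag leaves, by a narrow gap, and 5 of 6 did so in O. rufipogon. Flowering panicles ranged from 80.9 to 406 CPM with a median of 163 CPM in O. nivara and from 27.4 to 119 CPM with a median of 66.8 CPM in O. rufipogon. They overlapped with the leaves in both species, with 4 of 6 below every leaf in each.

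The heading panicle minus flag leaf difference of OsMADS14 was −2.36 ± 0.51 (log2 ± SE, n = 6 per group, edgeR quasi-likelihood test, adjusted p = 0.000306) in O. nivara. In O. rufipogon it was −3.03 ± 0.52 (edgeR adjusted p = 2.07e-05). The flowering panicle minus flag leaf difference was −2.58 ± 0.51 in O. rufipogon (edgeR adjusted p = 0.00016). In O. nivara that difference was −1.20 ± 0.49 and did not pass (edgeR adjusted p = 0.0510). It passed with DESeq2 (adjusted p = 0.030), and in edgeR without flowering panicle 34, without leaf 52 or without leaf 40, with adjusted p of 0.0356, 0.0454 and 0.0350. With no TMM factor it was −0.50 (edgeR adjusted p = 0.408).

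OsMADS15, the florigen-responsive gene that also acts in the palea, had lower mean levels in leaves than in panicles. In O. nivara flag leaves it ranged from 30.6 to 200.4 CPM with a median of 107 CPM, and in O. rufipogon flag leaves from 2.12 to 78.8 CPM with a median of 39.0 CPM. Within O. rufipogon the 3 leaves of 2009 held 62.0, 78.8 and 63.7 CPM and the 3 of 2010 held 2.12, 14.5 and 16.0 CPM. The lowest value, of plant 230, rested on 4 counts. Heading panicles ranged from 167 to 354 CPM with a median of 282 CPM in O. nivara and from 97.6 to 215 CPM with a median of 170.04 CPM in O. rufipogon. Flowering panicles ranged from 343 to 520.2 CPM with a median of 395 CPM in O. nivara and from 96.99 to 323 CPM with a median of 215 CPM in O. rufipogon. Every flowering panicle lay above every flag leaf of its species. So did every heading panicle of O. rufipogon and 5 of 6 of O. nivara.

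From leaf to heading panicle, OsMADS15 differed by 2.41 ± 0.53 (log2 ± SE) in O. rufipogon (edgeR adjusted p = 0.00045). In O. nivara the difference was 1.18 ± 0.51, a ratio of 2.26, and did not pass (edgeR adjusted p = 0.0575). It passed with DESeq2 (adjusted p = 0.0178), with the title number as a block (edgeR adjusted p = 0.0415) and with no TMM factor, where it was 1.81 (edgeR adjusted p = 0.00647). It also passed in edgeR without heading panicle 39, leaf 52 or leaf 133, with adjusted p of 0.0484, 0.0104 and 0.0284. From leaf to flowering panicle OsMADS15 rose in both species, by 1.74 ± 0.52 in O. nivara (3.35-fold, edgeR adjusted p = 0.00855) and by 2.74 ± 0.54 in O. rufipogon (6.70-fold, edgeR adjusted p = 0.000138).

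OsMADS18, whose transcript is known from leaves as well as apices in cultivated rice, followed OsMADS14 in tissue direction. In O. nivara flag leaves it ranged from 37.9 to 128 CPM with a median of 68.6 CPM, in heading panicles from 5.86 to 23.6 CPM with a median of 13.7 CPM and in flowering panicles from 11.7 to 25.1 CPM with a median of 17.8 CPM. All panicles of O. nivara lay below all of its leaves. In O. rufipogon flag leaves it ranged from 31.7 to 430.3 CPM with a median of 167 CPM, in heading panicles from 9.59 to 79.5 CPM with a median of 27.6 CPM and in flowering panicles from 9.91 to 147 CPM with a median of 24.5 CPM. The O. rufipogon tissues overlapped, with 3 of 6 libraries of each panicle stage below every leaf.

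The heading panicle minus flag leaf difference of OsMADS18 was −2.37 ± 0.45 (log2 ± SE) in O. nivara (edgeR adjusted p = 6.35e-05) and −2.08 ± 0.44 in O. rufipogon (edgeR adjusted p = 0.000272). From leaf to flowering panicle OsMADS18 fell 3.67-fold in O. nivara, by −1.88 ± 0.44 (edgeR adjusted p = 0.00138). In O. rufipogon it fell 3.17-fold, by −1.66 ± 0.44 (edgeR adjusted p = 0.00283).

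Between heading and flowering panicles none of the 3 genes passed in either species. The flowering minus heading differences were 1.16, 0.57 and 0.50 on the log2 scale for OsMADS14, OsMADS15 and OsMADS18 in O. nivara and 0.45, 0.34 and 0.41 in O. rufipogon, with SE of 0.43 to 0.49. At an unadjusted p under 0.05 edgeR counted 1 of 3 for O. nivara and 0 of 3 for O. rufipogon, against 5035 and 4193 of 20134 genes. DESeq2 called 0 members in both, against 18.1% and 12.6% of all genes. The order of the 3 tissues was thus leaf above both panicle stages for OsMADS14 and OsMADS18, and both panicle stages above leaf for OsMADS15, with the exceptions given. The panicle stages themselves were not told apart.

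**Figure D2:**
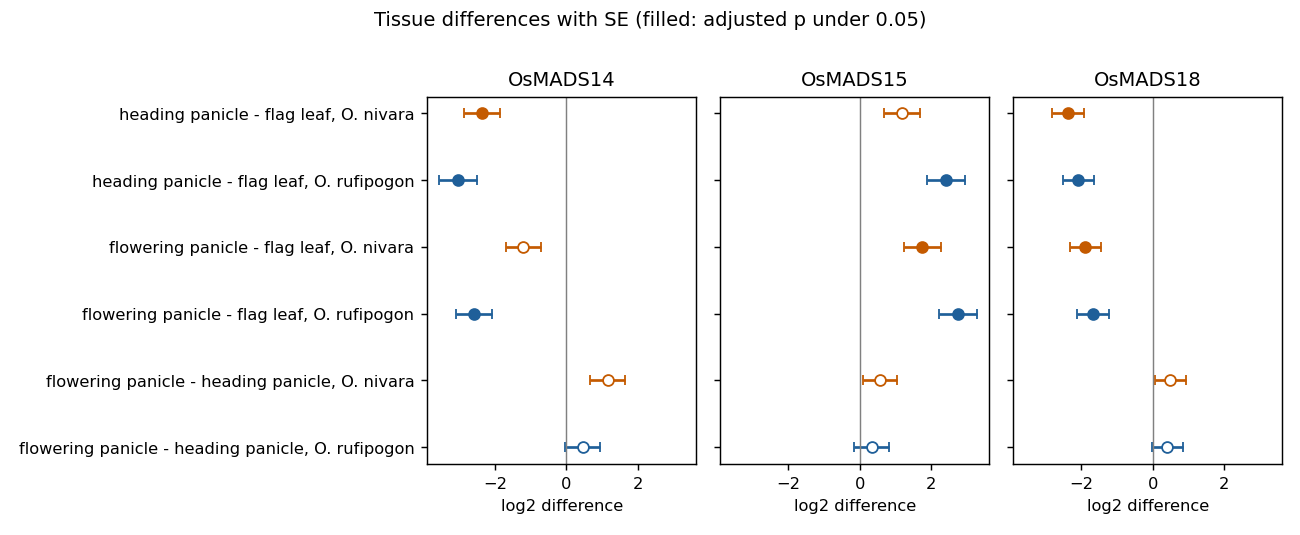
Differences between tissues (log2, edgeR) for OsMADS14, OsMADS15 and OsMADS18 in each species, with bars of ±1 SE and filled points where the adjusted p was under 0.05. Heading panicle minus flag leaf differences run from −3.03 to −2.08 for OsMADS14 and OsMADS18 and are 1.18 and 2.41 for OsMADS15, while the flowering minus heading differences lie between 0.34 and 1.16.

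The libraries of these comparisons were also read by title number, which gives no separate support. Where all libraries of the tissues separated, as for OsMADS18 in O. nivara, the count was fixed in advance. OsMADS18 was lower in the heading panicle than in the leaf for 5 of 5 title numbers of O. nivara and 6 of 6 of O. rufipogon. OsMADS15 was higher there for 5 of 5 and 6 of 6. OsMADS14 was lower for 5 of 5 and 5 of 6, and the exception was plant 47 of O. rufipogon with a log2 ratio of 0.17. Across genes, the deviations of leaf 47 from the mean of group and year correlated at −0.0498 with those of heading panicle 47. The highest such value with another number was 0.14. Whether leaf 47 came from the plant of its number was not tested.

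Whether the tissue differences themselves differed between species was tested as an interaction. For heading panicle minus leaf the O. nivara difference exceeded that of O. rufipogon by 0.67 ± 0.68 (log2 ± SE) for OsMADS14, by −1.23 ± 0.74 for OsMADS15 and by −0.30 ± 0.61 for OsMADS18. None of the 3 was called by edgeR, at an unadjusted p under 0.05 or by DESeq2, and 0.0149% of all genes were called. For flowering minus heading panicles the interactions were 0.70 ± 0.68, 0.23 ± 0.68 and 0.08 ± 0.62 and again none was called, at an unadjusted p under 0.05 or by DESeq2, against 0% of all genes. The O. rufipogon call and the missing O. nivara call for OsMADS15 at heading are therefore not shown to differ.

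Between the species, none of the 3 genes passed in any tissue. OsMADS14 and OsMADS15 had higher mean levels in O. nivara, and OsMADS18 had higher mean levels in O. rufipogon, in all 3 tissues. Separation of all libraries was seen once, for OsMADS15 in flowering panicles. There all 6 O. nivara libraries, from 343 CPM upward, lay above all 6 O. rufipogon libraries, which reached 323 CPM. The share of all genes that separate in this way was not counted.

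The genes called between species were 0.2% of those tested in leaves, 0.161% at heading and 1.26% at flowering. The members called were 0 of 3 in each tissue. At an unadjusted p under 0.05 edgeR counted 1 of 3 in leaves, 2 of 3 at heading and 2 of 3 at flowering. Of all genes 1900 of 15480, 2044 of 18634 and 3962 of 18743 had such a p. DESeq2 called 0, 0 and 2 members, against 2.09%, 2.73% and 10.4% of all genes. With edgeR few genes of any kind were called, so a member that misses the threshold is not shown to be alike in the species.

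In flowering panicles OsMADS15 was at 404 ± 64.7 CPM (mean ± SD, n = 6) in O. nivara and 217 ± 75.6 CPM in O. rufipogon. The O. nivara minus O. rufipogon difference was 0.90 ± 0.32 (log2 ± SE, edgeR adjusted p = 0.145). OsMADS14 was at 208 ± 131 CPM and 70.7 ± 36.1 CPM there, with 4 of 6 O. nivara libraries above every O. rufipogon library. Its difference was 1.51 ± 0.45 (edgeR adjusted p = 0.0946). Both differences passed with DESeq2, with adjusted p of 0.0155 for OsMADS14 and 0.0262 for OsMADS15. OsMADS14 also passed in edgeR without O. rufipogon plant 230, at 1.88 with an adjusted p of 0.0312. The summed level of 11 tapetum loci was 21.9 to 321 CPM in O. nivara and 105 to 5799 CPM in O. rufipogon, with 1 of the 8 loci tested called lower in O. nivara by edgeR and 6 called by DESeq2. The summed level of 3 late pollen loci was 4.73 to 245 CPM and 88.0 to 279.6 CPM, with none called by edgeR, 1 at an unadjusted p under 0.05 and 1 called by DESeq2. Their part in the species difference was not tested. OsMADS18 was at 18.04 ± 5.11 CPM and 50.7 ± 54.6 CPM, with a difference of −0.97 ± 0.53 (edgeR adjusted p = 0.316).

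In heading panicles the species differences were 0.81 ± 0.40 (log2 ± SE) for OsMADS14, 0.67 ± 0.29 for OsMADS15 and −1.04 ± 0.37 for OsMADS18, with edgeR adjusted p of 0.486, 0.417 and 0.326. OsMADS15 was at 273 ± 67.8 CPM (mean ± SD, n = 6) in O. nivara and 171 ± 43.4 CPM in O. rufipogon, and 5 of 6 O. nivara libraries lay above every O. rufipogon library. In flag leaves the differences were 0.11 ± 0.54, 1.88 ± 0.79 and −0.76 ± 0.40, with edgeR adjusted p of 0.951, 0.374 and 0.463. Leaf OsMADS14, at 474 ± 316 CPM and 436 ± 329 CPM, differed by far less than the spread within each species. Its difference turned to between −0.19 and −0.04 when leaf 133 or 26 of O. nivara or leaf 47 or 95 of O. rufipogon was left out.

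**Figure D3:**
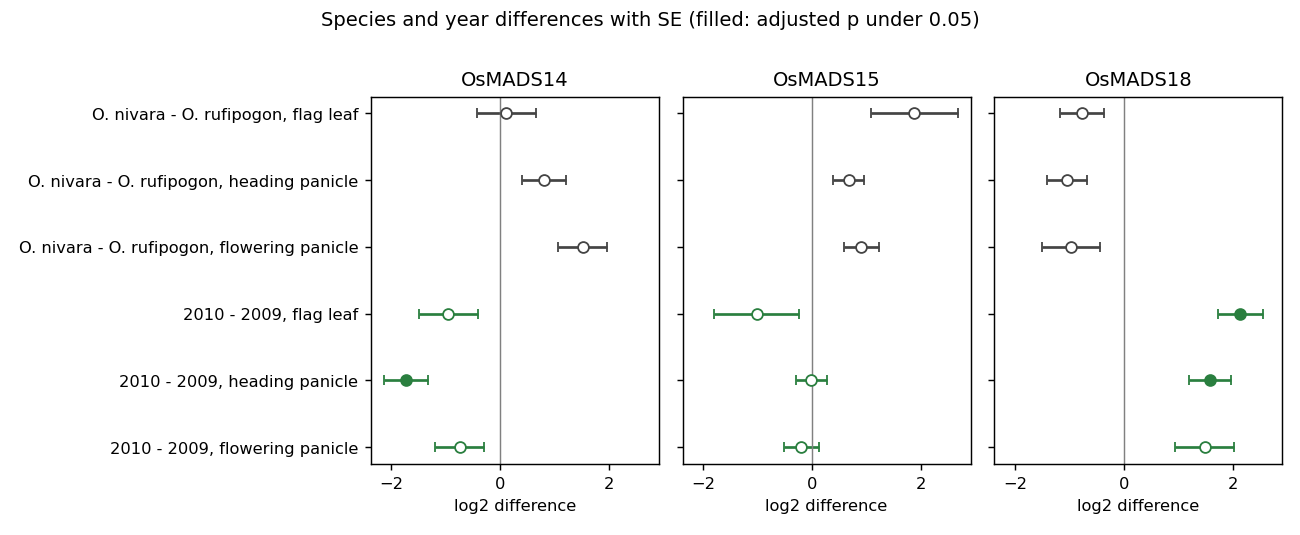
Differences between species (O. nivara minus O. rufipogon) and between years (2010 minus 2009) on the log2 scale (edgeR) for OsMADS14, OsMADS15 and OsMADS18 in each tissue, with bars of ±1 SE and filled points where the adjusted p was under 0.05. Filled points appear for year only, at 2.13 and 1.58 for OsMADS18 in leaves and heading panicles and at −1.73 for OsMADS14 in heading panicles.

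Collection year went with OsMADS18 and OsMADS14. The members called for year were 1 of 3 in leaves, 2 of 3 at heading and 0 of 3 at flowering, against 25.5%, 25% and 17.7% of all genes. OsMADS18 was higher in 2010 by 2.13 ± 0.41 (log2 ± SE, 4.39-fold, edgeR adjusted p = 0.00311) in flag leaves and by 1.58 ± 0.38 (2.98-fold, edgeR adjusted p = 0.00978) in heading panicles. OsMADS14 was lower in 2010 in heading panicles, by −1.73 ± 0.41 (3.31-fold, edgeR adjusted p = 0.00911). OsMADS15 did not pass for year in any tissue, at −1.01 ± 0.78 in leaves, −0.02 ± 0.28 at heading and −0.20 ± 0.32 at flowering.

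The leaves of O. rufipogon carried the widest split in OsMADS18. Its 2009 leaves held 41.9, 31.7 and 37.3 CPM for plants 49, 43 and 47, and its 2010 leaves held 301.1, 430.3 and 291 CPM for plants 230, 199 and 95. In O. nivara the 2009 leaves held 37.9, 50.4 and 45.1 CPM for plants 40, 26 and 33, and the 2010 leaves held 86.7, 94.1 and 128 CPM for plants 52, 133 and 80. All 6 leaves of 2010 lay above all 6 leaves of 2009. The share of all genes with such an order was not counted, and 25.5% were called for year in leaves. Of the 10 photosynthesis loci 3 were called higher and 1 lower in the leaves of 2010, with a median of 0.40 (log2).

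Within each species the heading panicles had the same order. Most of their title numbers were those of the leaves, so they give no separate support for it. In O. rufipogon the heading panicles held 10.4, 15.9 and 9.59 CPM in 2009 and 68.5, 39.2 and 79.5 CPM in 2010. In O. nivara they held 9.75, 5.86 and 13.2 CPM in 2009 and 14.2, 18.5 and 23.6 CPM in 2010. The years did not overlap within either species. Fitted within O. rufipogon alone, the year difference was 3.12 in leaves and 2.31 at heading (edgeR adjusted p = 0.018 and 0.0458). Within O. nivara alone it was 1.1 and 0.85 and did not pass (edgeR adjusted p = 0.13 and 0.258). In flowering panicles O. rufipogon held 9.91, 13.6 and 16.8 CPM in 2009 and 32.3, 147 and 85.1 CPM in 2010, while O. nivara held 16.4, 13.6 and 19.2 CPM in 2009 and 25.1, 11.7 and 22.1 CPM in 2010. Here the years overlapped in O. nivara and not in O. rufipogon, and the year difference of 1.48 ± 0.54 did not pass (edgeR adjusted p = 0.0749). It passed with DESeq2 (adjusted p = 0.024) and in edgeR without O. nivara plant 52, at 1.85 with an adjusted p of 0.0409.

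**Figure D4:**
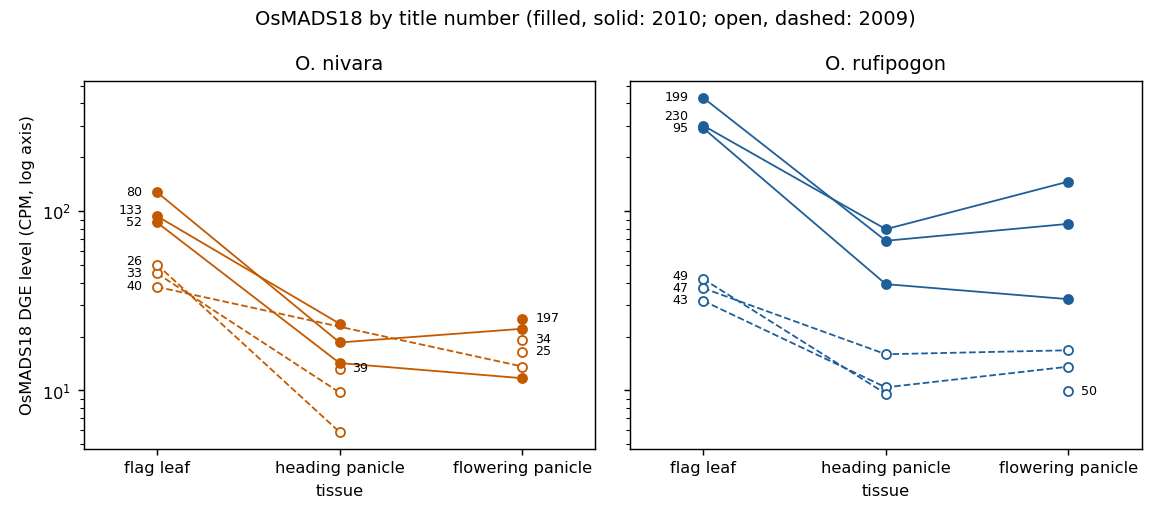
DGE level of OsMADS18 (CPM, log axis) in the tissues of each title number, joined by lines that pass over a tissue where the number has no library, with filled points and solid lines for 2010 and open points and dashed lines for 2009. In O. rufipogon plants 230, 199 and 95 of 2010 lie above plants 43, 47, 49 and 50 of 2009 in each tissue, and O. nivara leaves of 2010, at 86.7 to 128 CPM, lie above those of 2009.

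Within 2010 every O. nivara library lay below every O. rufipogon library for OsMADS18 in each of the 3 tissues, and within 2009 the species overlapped in each. These tissues share title numbers, and the share of all genes ordered this way was not counted. The species difference was −1.72 in leaves, −1.78 at heading and −2.21 at flowering within 2010, and 0.26, −0.28 and 0.32 within 2009 (log2). None of these 6 passed, with edgeR adjusted p from 0.185 to 0.266 in 2010 and from 0.764 to 0.908 in 2009. The 2010 differences minus the 2009 differences were −2.02 ± 0.56 in leaves, −1.51 ± 0.61 at heading and −2.53 ± 0.72 at flowering. Their edgeR adjusted p were 0.534, 0.544 and 0.373, with unadjusted p of 0.00319, 0.0302 and 0.00448. DESeq2 called the leaf difference (adjusted p = 0.0216) and not the others (adjusted p = 0.403 and 0.103).

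The members called for this interaction were 0 of 3 by edgeR in leaves, at heading and at flowering, against 0%, 0.00522% and 0% of all genes in that order. At an unadjusted p under 0.05 edgeR counted 2, 1 and 1 of 3, against 1208 of 16259, 1597 of 19139 and 1743 of 19243 genes. DESeq2 called 1, 0 and 0 members, against 0.341%, 1.25% and 0.908% of all genes. For year in flowering panicles edgeR counted 1 of 3 at an unadjusted p under 0.05, against 6035 of 18743 genes. DESeq2 called 1 there, against 24.9% of all genes. Of the year calls in flowering panicles 53.9% were higher in 2010, and 40.5% with no TMM factor, which moved the median of all genes from 0.02 to −0.15.

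OsMADS14 in heading panicles held 88.1, 204 and 229.9 CPM in O. nivara in 2009 and 79.5, 27.3 and 26.9 CPM in 2010. In O. rufipogon it held 63.5, 122 and 49.0 CPM in 2009 and 26.2, 27.8 and 43.2 CPM in 2010. All panicles of 2010 lay below those of 2009 within each species. The difference was −2.08 within O. nivara and −1.34 within O. rufipogon, and neither passed alone (edgeR adjusted p = 0.0631 and 0.158). In the same panicles 8 of the 10 photosynthesis loci were called higher in 2010, with a median log2 difference of 2.44 over the 10 against −0.07 over all genes. The part of organ make-up or depth in the year difference was not tested.

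Within O. rufipogon the OsMADS15 leaves of 2010 all lay below those of 2009, while in O. nivara the years overlapped. The year difference was −2.72 within O. rufipogon (log2, edgeR adjusted p = 0.0503) and 0.57 within O. nivara (edgeR adjusted p = 0.67). The species difference in leaves, O. nivara minus O. rufipogon, was 0.27 in 2009 and 3.61 in 2010, and the change between the years of 3.28 ± 1.09 did not pass (edgeR adjusted p = 0.61).

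The RNA-seq table gave levels per length of the gene model, as RPKM, and so allowed the 4 genes to be set against each other. Each value is 1 library of unknown depth, so no interval or test is given. In O. nivara flag leaf OsMADS14 stood at 93.9 RPKM, OsMADS18 at 99.8 RPKM and OsMADS15 at 3.65 RPKM. In O. rufipogon flag leaf they stood at 72.9, 94.6 and 8.60 RPKM. In the leaf library of each species OsMADS14 and OsMADS18 thus made up nearly all of the family's RNA-seq level, and OsMADS15 was 1.85% and 4.88% of the sum. DGE of the same titles gave another order. The O. nivara leaf, plant 40, held 298, 32.7 and 37.9 CPM of OsMADS14, OsMADS15 and OsMADS18. The O. rufipogon leaf, plant 47, held 109, 63.7 and 37.3 CPM, with OsMADS15 above OsMADS18. The cause was not tested. OsMADS15 in the O. nivara leaves ranged from 30.6 to 200.4 CPM in DGE, so other leaves may hold a larger share.

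In the heading panicle OsMADS15 was the highest of the family, at 78.1 RPKM in O. nivara and 54.2 RPKM in O. rufipogon. OsMADS18 stood at 61.4 and 43.0 RPKM and OsMADS14 at 18.8 and 15.2 RPKM. OsMADS15 held 49.3% of the sum in O. nivara and 48.2% in O. rufipogon. In DGE of the same titles OsMADS14 was above OsMADS15, at 229.9 against 167 CPM in O. nivara and 122 against 97.6 CPM in O. rufipogon. In the flowering panicle OsMADS15 stood at 102 and 62.7 RPKM, OsMADS18 at 53.9 and 72.2 RPKM and OsMADS14 at 53.4 and 14.3 RPKM. OsMADS15 was the highest in O. nivara, with 48.6% of the sum, and OsMADS18 in O. rufipogon, with 48.2%. In DGE of the same titles OsMADS15 was the highest in both, at 424 and 261 CPM, and OsMADS18 the lowest, at 13.6 and 16.8 CPM.

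The sums of the 4 genes in leaf, heading and flowering panicle were 197, 159 and 211 RPKM in O. nivara and 176, 113 and 150 RPKM in O. rufipogon (unrounded values were summed).

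OsMADS20 had no row in the DGE tables used here, in which every gene reached 5 TPM in at least 4 libraries. In RNA-seq it stood at 0.971 RPKM in the O. nivara flowering panicle, 0.454 RPKM in that of O. rufipogon, 0.276 and 0.188 RPKM in the heading panicles and 0.110 RPKM in the O. rufipogon leaf. It was listed at 0 in the O. nivara leaf. The values were in proportion to whole numbers of at least 25, 12, 8, 5 and 3 reads in that order, within a tolerance of 0.01, so they may rest on few reads. OsMADS20 was the lowest member in each of the 6 libraries and was higher in panicles than in leaves in both species.

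**Figure D5:**
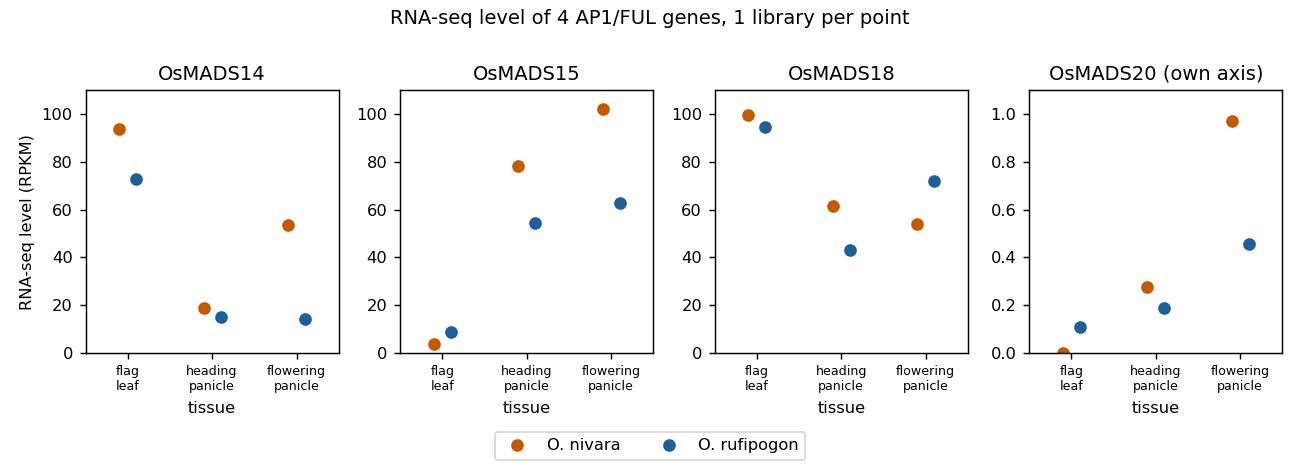
RNA-seq levels (RPKM) of OsMADS14, OsMADS15, OsMADS18 and OsMADS20 by tissue and species, with 1 library per point and OsMADS20 on an axis of its own. OsMADS15 rises from 3.65 and 8.60 RPKM in leaves to 102 and 62.7 RPKM in flowering panicles, OsMADS14 is highest in leaves, and OsMADS20 stays at or below 0.971 RPKM.

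The RNA-seq libraries could be set beside the DGE libraries of the same title. For OsMADS15 the RNA-seq log2 ratios (pseudocount 1) of flowering panicle to leaf were 4.47 in O. nivara and 2.73 in O. rufipogon, and the DGE ratios 3.66 and 2.02. For OsMADS18 they were −0.88 and −0.39 in RNA-seq and −1.41 and −1.11 in DGE. In these leaf comparisons both genes had the same direction in both methods, and the OsMADS18 ratios were nearer to 0 in RNA-seq. OsMADS15 also had the same direction in its other ratios between tissues and species. OsMADS18 did not, since its O. nivara to O. rufipogon ratio at heading was 0.50 in RNA-seq and −0.26 in DGE, and its flowering to heading ratio in O. nivara was −0.19 and 0.04.

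OsMADS14 differed in direction as well. Its heading panicle to leaf ratio in O. rufipogon was −2.19 in RNA-seq and 0.17 in DGE, and its flowering panicle to leaf ratio there was −2.27 and 0.13. The DGE leaf of that title, plant 47, held 109 CPM, while the other O. rufipogon leaves reached 836 CPM. By the deviations given above, that leaf correlated at −0.0498 and −0.045 with the heading and flowering panicles of its number. Those panicles correlated at 0.484 with each other. Whether the leaf belongs to that number was not tested. In O. nivara the flowering to heading ratio was 1.46 in RNA-seq and −1.49 in DGE, and the O. nivara to O. rufipogon ratio in flowering panicles was 1.83 and −0.55. The O. nivara libraries behind these ratios came from plant 40 for the leaf and flowering panicle and plant 39 for the heading panicle. With 1 library on each side the cause of these differences was not tested.

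Across the 36 DGE libraries, log2(CPM + 1) of OsMADS15 and OsMADS18 ran in opposite directions, with a Pearson r of −0.70. Between OsMADS14 and OsMADS15 it was −0.32 and between OsMADS14 and OsMADS18 it was 0.23. Within groups, after each group's mean was removed, the same 3 values were −0.38, 0.17 and −0.29. These are descriptions over libraries that share tissue, species and year, with no test.

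The genes most like each member were taken as the 3 with the highest Pearson r of log2(CPM + 1) over the 36 libraries among 20134 genes. For OsMADS14 they were LOC_Os08g31410 at 0.899, LOC_Os04g20990 at 0.895 and LOC_Os03g08270 at 0.889. For OsMADS15 they were LOC_Os05g03884 at 0.809, LOC_Os03g11600 at 0.790 and LOC_Os06g21240 at 0.788. For OsMADS18 they were LOC_Os09g25590 at 0.862, LOC_Os07g43050 at 0.860 and LOC_Os01g31680 at 0.859. None of the other members was among these. LOC_Os08g31410 shared the leaf peak of OsMADS14, with mean levels of 137 and 124 CPM in leaves of O. nivara and O. rufipogon and 9.85 and 8.34 CPM in heading panicles. LOC_Os05g03884 shared the panicle peak of OsMADS15, at 2.85 and 0.883 CPM in leaves and 72.9 and 50.0 CPM in flowering panicles.

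A list of 29 loci around florigen, its regulators and the MADS-box partners of the AP1/FUL genes was attached from general knowledge, and 18 of them were in the DGE tables. Heading panicles of O. nivara had 6 of them higher than leaves and 6 lower, and those of O. rufipogon had 8 higher and 4 lower. The loci called were thus 12 of 18 in each species, where edgeR called 46.7% and 42.6% of all genes. Their median difference was 0.99 and 0.97 (log2). From leaf to flowering panicle 8 were higher and 3 lower in each species, with medians of 0.22 and 1.56, where 37.5% and 40.4% of all genes were called. Between heading and flowering panicles 1 was higher and 1 lower in each species, where 12.9% and 8.25% of all genes were called.

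Some of these loci changed more at heading than any member. LOC_Os02g45770 rose by 7.13 (log2, edgeR adjusted p = 2.23e-09) in O. nivara and 6.87 in O. rufipogon, from means of 0.594 and 0.963 CPM in leaves to 103 and 98.4 CPM. LOC_Os08g41950 rose by 6.09 and 6.97. LOC_Os06g06300 fell, by −6.83 and −4.59 in the same order, from means of 49.7 and 7.42 CPM in leaves to 0.505 and 0.155 CPM. LOC_Os06g11330 fell as well, by −4.84 and −2.83, of which the second is smaller than the O. rufipogon change of OsMADS14. These loci are given by number, since no annotation was at hand to name them.

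Between the species the list gave 0 calls by edgeR among the 11, 15 and 17 loci tested in leaves, heading and flowering panicles. At an unadjusted p under 0.05 edgeR counted 2, 4 and 7 of them, against 1900 of 15480, 2044 of 18634 and 3962 of 18743 genes. DESeq2 called 1, 2 and 3, against 2.09%, 2.73% and 10.4% of all genes. Between the years edgeR called 1 higher and 1 lower in leaves, 3 higher and 2 lower in heading panicles and 3 higher and 1 lower in flowering panicles. These are 2 of 11, 5 of 15 and 4 of 17 loci tested, against 25.5%, 25% and 17.7% of all genes. DESeq2 called 4, 6 and 6, against 27.7%, 31.5% and 24.9% of all genes.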

How the data were processed

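For each DGE library the authors deposited raw tag counts by gene and the same values as TPM, here tags per 1e+06 of a library total with no division by gene length. The deposited TPM times that total gave back every count, with a largest deviation of 2.04e-10, and 0.731 to 2.83% of each total lay outside the listed genes. The RNA-seq table deposited by the authors holds RPKM, with no read totals. Per the submitters' processing notes BWA, without a version, and edgeR 3.6.8 were used. The sources used here give no genome build, annotation or strand handling, so reads of close MADS-box paralogs may have been split or shared by the counting.

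The members and lists were chosen with earlier results of these data known. All tests used the counts, fitted over all genes passing filterByExpr by the quasi-likelihood F test of edgeR 4.0.16 in R 4.3.3 after TMM scaling, with Benjamini-Hochberg adjustment over all genes tested and a threshold of 0.05. SE was taken from the log2 difference and its F statistic. Species and year were fitted together within each tissue (12 libraries). Tissue differences came from 1 model of all 36 libraries with a year term for each tissue, which treats tissues of 1 title number as independent. Nothing in the labels says that libraries came from separate plants beyond their title numbers, so p-values measure the spread between these libraries. Within-group Pearson r between libraries, across genes, was 0.518 to 0.915; no 2 libraries held the same counts. Called here means an adjusted p under 0.05. Shares of all genes were not counted for any separation or overlap of groups.

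Alternatives were DESeq2 1.42.0, its size factors, no TMM factor, no filter, no year term, 1 year or 1 species only, only the tissues compared, the title number as a block and each library left out. Named genes were the members, the 3 genes most like each (mean of at least 1 CPM) and called loci of the list.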

Additional observations from a re-analysis of the deposited data

Results flagged for a closer look

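Of the 18 groups of 6 libraries (3 genes, 3 tissues and 2 species), 1 held a library far from the others. OsMADS14 in O. nivara flag leaves was at 1087 CPM in plant 26, and the next highest leaf was at 495 CPM. The gap to the nearest library was 0.691 of the group's range in CPM, above Dixon's critical value of 0.625 for 6 samples. Log levels were not examined in this way. Chance flags about 1 in 20 groups, so 1 flag among 18 groups is near that rate. The species difference of OsMADS14 in leaves was −0.19 (log2, edgeR adjusted p = 0.933) without this library and 0.11 with it.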

How the results depend on the processing

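The tissue differences of the members called in edgeR kept their direction and their call under every alternative run, including each library left out. The calls for year in OsMADS18 and OsMADS14 held with DESeq2, its size factors, no TMM factor, no filter and each library left out. Within 1 species of 6 libraries the year difference was 1.1 for OsMADS18 in O. nivara leaves, 0.85 in its heading panicles, and −2.08 and −1.34 for OsMADS14 in heading panicles of O. nivara and O. rufipogon, none past the threshold. In O. rufipogon alone OsMADS18 passed in both tissues, at 3.12 and 2.31. Flowering panicles of O. rufipogon alone gave OsMADS18 a year difference of 2.71, which passed (edgeR adjusted p = 0.0445). These fits had fewer samples.

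Differences that crossed the threshold with DESeq2 were 1.53 for OsMADS14 and 0.92 for OsMADS15 between species in flowering panicles, 1.48 for OsMADS18 between years there, −2.04 for the species by year interaction of OsMADS18 in leaves, 1.23 for OsMADS15 from leaf to heading panicle and −1.21 for OsMADS14 from leaf to flowering panicle, both in O. nivara. The OsMADS15 difference also crossed it with DESeq2's size factors (1.23), with no TMM factor (1.81) and with only the 2 tissues (1.44). The cause was not tested. Signs turned for OsMADS18 between species with only 2009 in leaves (0.26) and flowering panicles (0.32), and for OsMADS15 between years in O. nivara leaves (0.57), in its heading panicles (0.13) and with no filter in heading panicles (0.0076). None of these passed.

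With each library left out in turn, differences ranged from −1.41 to −0.90 for OsMADS14 from leaf to flowering panicle in O. nivara, 0.82 to 1.58 for OsMADS15 from leaf to heading panicle there, and −0.0161 to 0.64 for OsMADS18 between panicle stages in O. rufipogon. They ranged from −0.19 to 0.45 for OsMADS14 between species in leaves, 1.30 to 1.88 in flowering panicles, −0.12 to 0.12 for OsMADS15 between years in heading panicles and 1.11 to 1.85 for OsMADS18 between years in flowering panicles. Counts of called genes ranged from 10 to 40 between species in leaves, 16 to 59 at heading, 33 to 968 at flowering, and 968 to 1805 between panicle stages in O. rufipogon.

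Between species, called genes numbered 31 in leaves, 30 at heading and 237 at flowering. DESeq2 gave 414, 538 and 2066, no year term 12, 13 and 44, and the model of all 36 libraries 259, 92 and 451. With 2009 alone edgeR gave 12 in leaves and 13 in flowering panicles, and with 2010 alone 11 in heading panicles and 9 in flowering panicles. In leaves of 2010 alone edgeR gave 0, with 1235 genes at an unadjusted p under 0.05, and DESeq2 was not run on single years. Between years the counts were 3946, 4656 and 3326, against 1252, 2293 and 262 in O. nivara and 1087, 443 and 918 in O. rufipogon alone. For species by year, edgeR called 0, 1 and 0 and DESeq2 68, 248 and 181, and at an unadjusted p under 0.05 edgeR counted 1208 in leaves and 1743 in flowering panicles. For species by tissue DESeq2 called 60 and 9 against 3 and 0, and between panicle stages in O. rufipogon 2524 against 1661.

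Of 26 pairs of libraries with 1 title number, 23 had a correlation of deviations over 0.1 (median 0.259, lowest −0.05), and 22 correlated best with their own number, so the numbers did not pair every sample. Pairs that failed to do so included leaf 47 of O. rufipogon with its heading and flowering panicles, and leaf 49 with its heading panicle. With the replicate block OsMADS15 from leaf to heading panicle in O. nivara was 1.40 (edgeR adjusted p = 0.0415) and the OsMADS18 interaction between panicle stages was −0.11 against 0.08. Called genes were then 30 against 2604 between panicle stages and 4434 against 7560 from leaf to flowering panicle in O. nivara, and 6 against 3 for species by tissue at heading. No other member's call changed with the block. Of the 3 genes most like each member, Pearson r within groups shared 1 for OsMADS14, 0 for OsMADS15 and 0 for OsMADS18. Spearman rho over the 36 libraries shared 0 for OsMADS15. OsMADS20 had no DGE row, so no DGE comparison was made for it.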
